A study of Mus musculus with 13 samples.

Results

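A set of 10 genes, made of Toll-like receptors and their partners, was examined in mouse brain after injury: Tlr1, Tlr2, Tlr4, Tlr6, Tlr13, Cd14, Cd180, Ly86, Ly96 and Myd88. They were chosen by gene symbol, with earlier results of these data known. They are 10 of the 24470 genes with at least 1 count over the libraries in the deposited table. Every member had a row, and 9 of the 10 passed the filter on low counts. Ly96 did not pass it, because no library reached the required level.

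Messenger RNA was sequenced in bulk from brain hemispheres of male wild-type C57BL/6 mice, 12 to 16 weeks old, 4 days after surgery under anesthesia. Controlled cortical impact (CCI) is a brain injury model in which a piston strikes the exposed cortex, and control mice were sham-treated. The hemisphere on the side of surgery is called ipsilateral and the other contralateral, and all groups share genotype, strain, sex, age and day. There were 4 CCI ipsilateral libraries (animals 1, 2, 3 and 5), 4 CCI contralateral libraries (the same animals), 2 sham ipsilateral libraries (animals 4 and 6) and 3 sham contralateral libraries (animals 4, 6 and 8). All ipsilateral libraries carry RH and all contralateral libraries LH in their names, read here as right and left hemisphere, so within a mouse the side of surgery cannot be told apart from right and left. Totals ran from 5604856 to 7955076 counts per library. The labelled tissue matched its markers: genes of neurons, astrocytes and oligodendrocytes summed to at least 4300 CPM (counts scaled to a common library size) per list in every library. A listed 0 is not read as absence here, since Gad2, a gene of inhibitory neurons, is listed at 0 in every brain library. Levels are CPM scaled by TMM factors unless stated otherwise, and a call is an adjusted p under 0.05 in edgeR's quasi-likelihood test with Benjamini-Hochberg adjustment over 14875 genes.

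Toll-like receptors are membrane proteins that recognise microbial products and some molecules released by damaged cells, and most of them signal through the adaptor MyD88 to NF-kappa B. TLR2 pairs with TLR1 or TLR6 to bind lipopeptides, and TLR4 binds lipopolysaccharide together with MD-2 (the product of Ly96) after CD14 has delivered it. CD180, also called RP105, resembles TLR4 outside the cell but lacks the signalling domain. It is held by MD-1 (the product of Ly86) as TLR4 is held by MD-2, and in mouse macrophages and dendritic cells it is known to restrain TLR4 signalling. TLR13 is an endosomal receptor for bacterial ribosomal RNA in mice. In brain these genes are known mainly from microglia and from myeloid cells that enter after injury.

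RefSeq promoter windows (GRCm38.p6, 250 bases before to 50 after a start) were available for 7 of the 10 genes, in 10 windows: Tlr1, Tlr2, Tlr6, Tlr13, Cd180, Ly86 and Myd88. The stretches upstream of the outermost annotated start are shown for Cd180 and Ly86, which encode the subunits of a complex and were the members called in the contralateral hemisphere. They are also shown for Tlr2 and Tlr13, receptors whose injured hemispheres were separate from all other libraries. That separation held for Tlr1, Tlr6 and Tlr4 as well. The stretches of Tlr1 and Tlr6 are not printed, and Tlr4 had no window. Capitals mark matches to 4 motifs searched on both strands, the PU.1 and ETS core GAGGAA, the AP-1 site TGANTCA, the kappa B letters GGANTTTCC and the interferon-response core TTTCNNTTT.
Cd180 (chr13:102693438-102693557, strand +): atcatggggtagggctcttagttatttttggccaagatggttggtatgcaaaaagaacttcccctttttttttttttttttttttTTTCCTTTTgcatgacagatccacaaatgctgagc
Ly86 (chr13:37345095-37345207, strand +): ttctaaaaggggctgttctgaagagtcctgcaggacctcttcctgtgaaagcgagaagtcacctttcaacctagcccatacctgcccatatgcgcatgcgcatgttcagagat
Tlr2 (chr3:83841768-83841858, strand -): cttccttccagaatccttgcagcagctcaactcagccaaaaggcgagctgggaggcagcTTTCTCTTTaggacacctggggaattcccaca
Tlr13 (chrX:106143084-106143203, strand +): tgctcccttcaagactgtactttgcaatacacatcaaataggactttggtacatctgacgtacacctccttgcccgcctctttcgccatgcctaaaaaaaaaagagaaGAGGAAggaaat

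Of 32851 windows of 300 bases in the RefSeq table, 28.3% held GAGGAA, 7.81% the AP-1 letters, 1.25% the kappa B letters and 10.6% the interferon-response core. GAGGAA was found in the windows of Tlr13 (position -83 from the start) and Tlr1 (position -23). The interferon-response core was found for Tlr2 at -191, for Myd88 at -39, in an alternate window of Tlr6, where 3 matches overlap, and for Cd180 at the end of the run of T printed above. Of the 7 genes with a window, Myd88 alone held the kappa B letters as searched, at position 5. Other forms of the kappa B site were not searched. The Ly86 window held none of the 4. These are matches of letters, and no binding was measured.

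Tlr1 and Tlr6 both lie on chromosome 5 and share coding sequence, which matters for how reads are divided between them. The longest identical run is 229 bases, positions 1468 to 1696 of the Tlr1 coding sequence and 1507 to 1735 of the Tlr6 coding sequence, and is printed as GENCODE M21 transcripts hold it, with no capitals because nothing in it differs.
Tlr1 and Tlr6: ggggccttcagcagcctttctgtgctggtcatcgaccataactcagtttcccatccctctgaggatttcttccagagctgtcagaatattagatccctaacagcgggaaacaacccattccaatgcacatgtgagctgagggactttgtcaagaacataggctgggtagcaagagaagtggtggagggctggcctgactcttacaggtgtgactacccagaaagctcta
Of all stretches of 50 bases in the Tlr1 coding sequence, 19.4% were also in Tlr6, and 19.2% the other way round. Neither gene shared a stretch of 50 bases with Tlr2. The expected counts of Tlr1 were not whole in 6 of 13 libraries. The sum of Tlr1 and Tlr6 was whole within 0.02 in 12 of 13, which includes the libraries where both counts were whole already. The exception was the CCI ipsilateral library of animal 3, with a sum of 48.26. Levels of Tlr1 and Tlr6 are therefore given both separately and summed.

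The 5 receptors, Cd14, Cd180, Ly86 and the adaptor Myd88 were higher in the injured hemisphere, and Ly96 was too low to test. Of the 9 members that were tested, 9 were called higher in CCI than in sham ipsilateral hemispheres, where 12.5% of all tested genes were called higher and 10.0% lower. Tlr6 passed the filter only through the CCI ipsilateral libraries, so this count is not independent of the difference. The members were also chosen with earlier results of these data known, so the share over all genes is no test of the set. Without a filter 9 of all 10 members were called, the exception being Ly96. The log2 fold change was 3.94 ± 0.58 (SE) for Tlr1, which rests on 3 sham counts, and 3.29 ± 0.31 for Cd180. Their order turned with limma on log2(TPM + 1), at 1.86 and 2.55, and with Tlr1 and Tlr6 summed (3.14). Myd88 had 0.88 ± 0.22. The median log2 fold change of the tested members was 2.28, against 0.00 over all tested genes. CPM ranges of the 10 members did not overlap between the 4 CCI and 2 sham ipsilateral libraries, which held, in the direction of higher CCI values, for 21.8% of tested genes. In bulk tissue a larger share of cells that carry a transcript and more transcript per cell cannot be told apart.

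**Figure D1:**
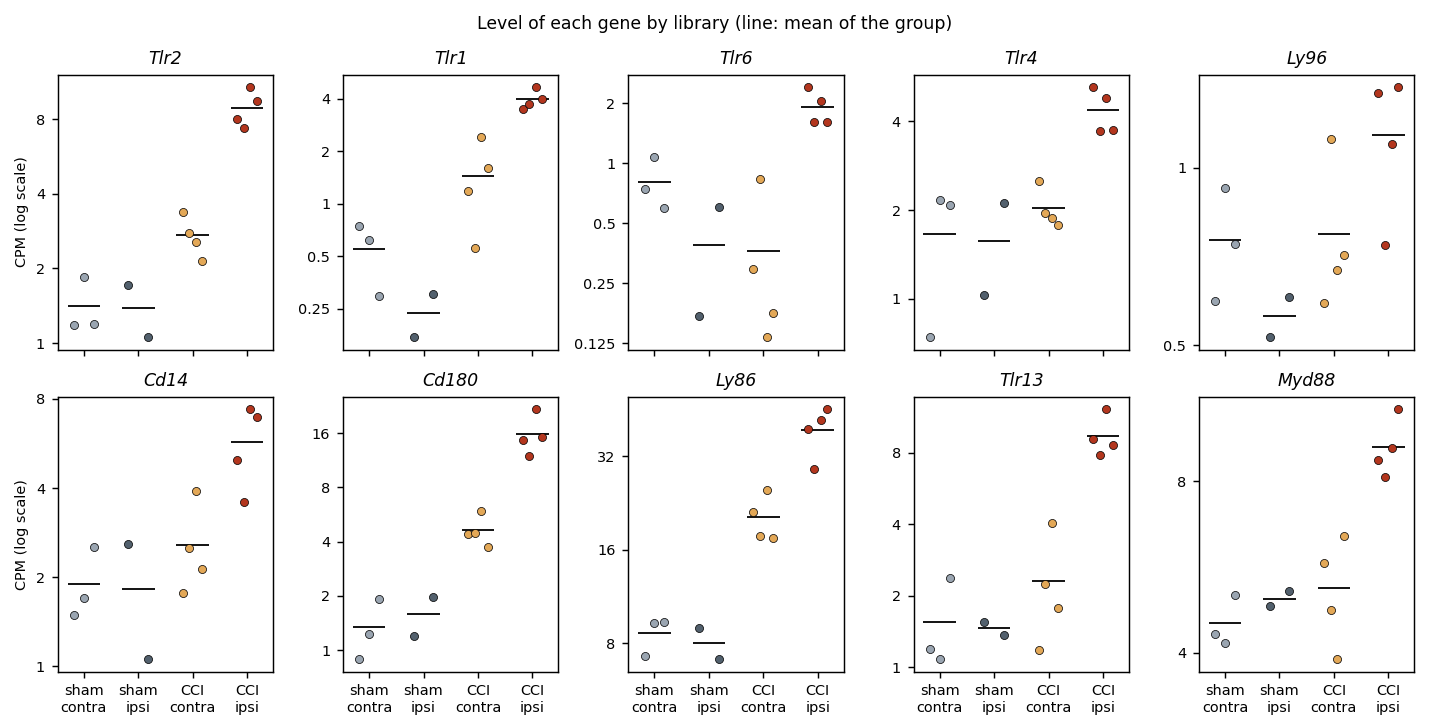
Levels of the 10 genes in CPM on a log scale, with a point for each of the 13 libraries and a line at the mean of each group. The CCI ipsilateral points lie above all sham ipsilateral points in every panel, and for Tlr2, Cd180 and Ly86 the CCI contralateral points lie between sham and CCI ipsilateral.

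Tlr2, the subunit common to the lipopeptide receptors (chr3:83836272-83841767 of GRCm38, minus strand), read 8.05, 7.40, 10.8 and 9.47 CPM in the CCI ipsilateral hemispheres of animals 1, 2, 3 and 5. The sham ipsilateral hemispheres of animals 4 and 6 read 1.72 and 1.06 CPM. The opposite hemispheres of the CCI mice read 3.39, 2.79, 2.55 and 2.14 CPM, and the sham contralateral ones 1.19, 1.85 and 1.19 CPM. All injured hemispheres were above all others, and the CCI contralateral range lay above the sham contralateral range without overlap. Against sham ipsilateral Tlr2 was 6.43-fold higher (log2 2.69 ± 0.31, adjusted p = 1.62e-07), and against the same animals' other hemisphere 3.25-fold higher (log2 1.70 ± 0.21, adjusted p = 3.42e-07). The contralateral log2 difference of 0.95 ± 0.30 was not called (adjusted p = 0.418).

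Tlr1, which joins Tlr2 in the receptor for triacylated lipopeptides (chr5:64924679-64933563, minus strand), read 3.49, 3.70, 4.65 and 3.99 CPM in the CCI ipsilateral libraries and 0.172 and 0.302 CPM in the sham ipsilateral ones. These rest on 122 counts against 3, a ratio of 16.4 with a 95% counting interval of 5.47 to 80.4. The fitted log2 fold change was 3.94 ± 0.58 (adjusted p = 8.01e-06). CCI contralateral libraries spread widely, at 1.18, 0.559, 2.42 and 1.60 CPM, and overlapped the sham contralateral values of 0.742, 0.617 and 0.297 CPM. Within CCI mice the injured hemisphere was higher in all 4 animals (log2 1.44 ± 0.31, adjusted p = 0.000789), while the contralateral log2 difference from sham of 1.36 ± 0.48 was not called (adjusted p = 0.512).

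Tlr6, the partner of Tlr2 for diacylated lipopeptides (chr5:64952031-64960097, minus strand), read 2.41, 1.60, 2.05 and 1.62 CPM in the injured hemispheres. Sham ipsilateral values were 0.172 and 0.604 CPM, on 5 counts against 59 in CCI, a ratio of 4.75 with a 95% counting interval of 1.92 to 15.2. The CCI contralateral libraries held 0.295, 0.838, 0.134 and 0.178 CPM, and the sham contralateral ones 0.742, 1.08 and 0.595. The injured hemisphere stood above the rest, and the 2 contralateral groups overlapped. Tlr6 was called higher than in sham ipsilateral (log2 2.21 ± 0.60, adjusted p = 0.00706) and than in the other hemisphere of CCI mice (log2 2.32 ± 0.46, adjusted p = 0.00037). The first of these calls was lost when the sham ipsilateral group was left with animal 6 alone (log2 1.64, adjusted p = 0.116). With Tlr1 and Tlr6 summed, an alternative chosen after the data were seen, the log2 fold change was 3.14 ± 0.40 against sham ipsilateral (adjusted p = 7.65e-07) and 1.67 ± 0.25 between the hemispheres of CCI mice (adjusted p = 6.21e-06). In CCI contralateral libraries Tlr1 had 39 and Tlr6 10 expected counts in all, and in sham contralateral libraries 11.5 and 15.5. The summed contralateral difference was 0.41 ± 0.34 (adjusted p = 0.895), where the separate values had opposite signs, 1.36 for Tlr1 and -1.08 for Tlr6.

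Tlr4, the receptor for lipopolysaccharide (chr4:66827584-66930284, plus strand), read 5.23, 3.70, 4.79 and 3.74 CPM in the injured hemispheres and 1.03 and 2.11 CPM in sham ipsilateral ones. Contralateral levels were 2.51, 1.95, 1.88 and 1.78 CPM after CCI and 0.742, 2.16 and 2.08 CPM in sham mice. The injured hemispheres stood apart from every other library, and the 2 contralateral groups overlapped. Tlr4 was 2.70-fold higher than in sham ipsilateral (log2 1.43 ± 0.36, adjusted p = 0.00399) and 2.13-fold higher than in the opposite hemisphere (log2 1.09 ± 0.27, adjusted p = 0.00333). The first call was lost when animal 4 was left out of the sham ipsilateral group (log2 1.04, adjusted p = 0.108).

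Cd14, the co-receptor that hands lipopolysaccharide to the complex of TLR4 and MD-2, read 4.96, 3.58, 7.39 and 6.98 CPM in the injured hemispheres and 2.58 and 1.06 CPM in sham ipsilateral ones. The CCI contralateral values of 1.77, 2.51, 3.90 and 2.14 CPM overlapped the injured range, because animal 3 contralateral exceeded animal 2 ipsilateral. Sham contralateral levels were 1.49, 1.70 and 2.53 CPM. Within each of the 4 CCI animals the injured side was higher (log2 1.12 ± 0.27, adjusted p = 0.00315). The fold over sham ipsilateral was 3.18 (log2 1.67 ± 0.38, adjusted p = 0.00169), and the call was lost when animal 6 was dropped from sham ipsilateral (log2 1.14, adjusted p = 0.114). In the authors' deposited table the log2 estimate for this comparison is 0.79 with an adjusted p of 0.205, and between the hemispheres of CCI mice it is 1.14 with an adjusted p of 0.0838.

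Ly96, which encodes MD-2 (chr1:16688051-16709611, plus strand), had only 35 counts over the 4 injured hemispheres and 7 over the sham ipsilateral pair. Its levels were 1.34, 0.74, 1.10 and 1.37 CPM in CCI ipsilateral, 0.517 and 0.604 CPM in sham ipsilateral, 0.59 to 1.12 CPM in CCI contralateral and 0.594 to 0.925 CPM in sham contralateral libraries. The ipsilateral groups did not overlap, whereas the hemispheres of CCI mice did. Without the filter on low counts the log2 difference from sham ipsilateral was 0.99 ± 0.63 (adjusted p = 0.396), so no difference was detectable at this depth.

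Cd180 (chr13:102693558-102739629, plus strand) read 14.6, 12.0, 21.8 and 15.3 CPM in the injured hemispheres, against 1.21 and 1.96 CPM in sham ipsilateral ones. The opposite hemispheres of the same CCI mice read 4.42, 4.47, 5.91 and 3.74 CPM, and the sham contralateral ones 0.891, 1.23 and 1.93 CPM. The 3 levels were separate: each CCI contralateral library exceeded each sham library and fell short of each injured one. Cd180 was 9.79-fold higher than sham in the ipsilateral hemisphere (log2 3.29 ± 0.31, adjusted p = 5.54e-09) and 3.43-fold higher in the contralateral hemisphere (log2 1.78 ± 0.31, adjusted p = 0.0164). Between the hemispheres of CCI mice the ratio was 3.38 (log2 1.76 ± 0.19, adjusted p = 7e-08).

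Ly86, the MD-1 subunit that holds CD180 at the cell surface (chr13:37345208-37419036, plus strand), read 39.2, 29.2, 41.9 and 45.5 CPM in the injured hemispheres and 8.96 and 7.10 CPM in sham ipsilateral ones. In CCI contralateral libraries it read 21.2, 17.7, 25.0 and 17.4 CPM, and in sham contralateral ones 7.28, 9.25 and 9.37 CPM. As with Tlr2 and Cd180, the CCI contralateral range lay between the sham and the injured ranges and touched neither. Ly86 was 4.87-fold higher than sham on the ipsilateral side (log2 2.28 ± 0.20, adjusted p = 1.62e-07) and 2.37-fold higher on the contralateral side (log2 1.25 ± 0.18, adjusted p = 0.0149). Within CCI mice the injured side exceeded the other by 1.90-fold (log2 0.93 ± 0.13, adjusted p = 3.55e-05).

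The contralateral hemisphere of CCI mice thus held the pair Cd180 and Ly86 above sham and no other member past the test. Of the 9 tested members 2 were called higher, where 0.0807% of tested genes were (12 genes). As the members were chosen with earlier results of these data known, that share is no test of the set. Cd180 had the largest log2 fold change of those 12 genes (1.78 ± 0.31), and Ly86 ranked 6. The lead of Cd180 over Serpina3n (1.77 ± 0.20) and Cd52 (1.73 ± 0.35) was within the SE. The other 10 were Serpina3n, Cd52, A2m, C4b, Fcgr2b, Lag3, Cd68, C1qa, Apod and Ctsl, and 2 genes, Vegfa and Peg10, were called lower. Ranges of 3 members (Tlr2, Cd180 and Ly86) lay wholly above sham, as did those of 4.00% of tested genes. The direction for Cd180 and Ly86 held under all 22 alternatives, but the calls did not. With limma voom the adjusted p was 0.194 for Cd180 and 0.101 for Ly86, and with the animal as a random block 0.17 and 0.108. Leaving out the sham contralateral library of animal 4 gave 0.253 and 0.148, leaving out that of animal 6 gave 0.17 and 0.12, leaving out animal 8 ended the call of Ly86 (0.0758), and leaving out the CCI contralateral library of animal 3 ended that of Cd180 (0.0564). In these contralateral hemispheres the summed microglial genes read 438 to 536 CPM after CCI and 311 to 452 CPM in sham mice, the monocyte and macrophage genes 5.01 to 6.98 and 2.97 to 6.24 CPM, the neutrophil genes, mostly Csf3r, 8.66 to 14.6 and 4.90 to 7.28 CPM, and the B cell genes 1.47 to 3.38 and 0.743 to 2.31 CPM, whose part in the result was not tested. Cd180 overlaps an exon of Mast4 on the other strand, and no source used here states whether counting used the strand. The effect of that overlap on its counts was not tested.

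Tlr13 (chrX:106143204-106160493, plus strand) read 9.12, 7.77, 12.2 and 8.60 CPM in the injured hemispheres and 1.55 and 1.36 CPM in sham ipsilateral ones. Contralateral levels were 1.18, 2.24, 4.03 and 1.78 CPM after CCI and 1.19, 1.08 and 2.38 CPM in sham mice. The injured hemispheres were separate from all others, and the contralateral groups overlapped. It was 6.42-fold higher than sham on the ipsilateral side (log2 2.68 ± 0.37, adjusted p = 5.99e-06) and 3.97-fold higher than the other hemisphere in CCI mice (log2 1.99 ± 0.26, adjusted p = 1.89e-06). The contralateral log2 difference of 0.59 ± 0.37 was not called (adjusted p = 0.81).

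Myd88, the adaptor used by TLR2, TLR4 and TLR13 (chr9:119335934-119341411, minus strand), moved least among the called members. It read 8.72, 8.14, 9.17 and 10.7 CPM in the injured hemispheres and 4.82 and 5.13 CPM in sham ipsilateral ones. The CCI contralateral values were 5.75, 4.75, 3.90 and 6.41 CPM, and the sham contralateral ones 4.30, 4.16 and 5.05 CPM. The injured libraries were higher than all others without overlap. The folds were 1.84 against sham ipsilateral (log2 0.88 ± 0.22, adjusted p = 0.00332) and 1.78 against the other hemisphere (log2 0.83 ± 0.17, adjusted p = 0.000488). An exon of Acaa1a overlaps Myd88 on the opposite strand.

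Within CCI mice 9 of the 9 tested members were higher in the injured than in the opposite hemisphere, with a median log2 fold change of 1.44, where 12.8% of tested genes were called higher. This count is not independent of the difference, since Tlr6 passed the filter only through the CCI ipsilateral libraries. All 207 values from the alternatives kept direction and call, the fit with the animal as a replicate block included. CPM ranges did not overlap for 8 of the 10 members, the exceptions being Cd14 and Ly96, and 12.9% of tested genes were higher without overlap. In sham mice none of the 9 was called between the hemispheres, where 1 of the 14875 tested genes was (0.00672%). None reached an unadjusted p under 0.05 in edgeR, and DESeq2 and limma called none either. With Tlr1 and Tlr6 summed the log2 difference between sham hemispheres was -1.06 ± 0.51, lower on the ipsilateral side (edgeR unadjusted p = 0.0497, adjusted p = 0.813).

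**Figure D2:**
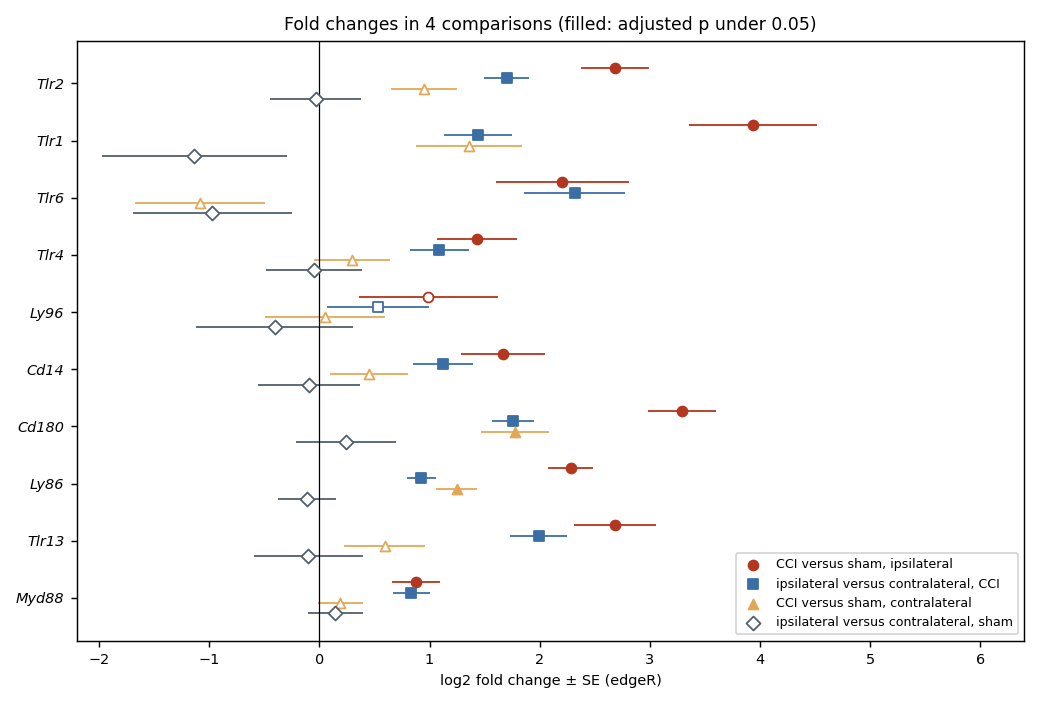
Log2 fold change ± SE from edgeR for each gene in 4 comparisons, filled where the adjusted p is under 0.05; Ly96 values come from the fit without the filter. The ipsilateral contrast with sham and the contrast between hemispheres of CCI mice are filled for 9 genes, the contralateral contrast for Cd180 and Ly86 alone, and the sham contrast for none.

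The test of whether the hemisphere difference itself differed between CCI and sham mice called 4 of the 9 members, where 4.84% of tested genes were called higher. They were Tlr6 (log2 3.29 ± 0.85, adjusted p = 0.0145), Tlr2 (1.73 ± 0.46, adjusted p = 0.0167), Tlr13 (2.09 ± 0.56, adjusted p = 0.0184) and Ly86 (1.04 ± 0.29, adjusted p = 0.0341). The call of Tlr6, and so the count, is not independent of the difference, since Tlr6 passed the filter only through the CCI ipsilateral libraries. Cd180 (1.52 ± 0.49, adjusted p = 0.0558) and Tlr1 (2.58 ± 0.88, adjusted p = 0.0687) missed the threshold, as did Tlr4 (adjusted p = 0.184), Myd88 (0.171) and Cd14 (0.174). All 9 had an unadjusted p under 0.05 in edgeR, as did 12.3% of tested genes in the same direction. With only 2 sham ipsilateral libraries these calls were sensitive: leaving out that of animal 4 or that of animal 6 left 1 member called, and leaving out the sham contralateral library of animal 6 or of animal 8 left 2. With the animal as a replicate block Tlr13 missed the threshold (log2 1.69, adjusted p = 0.0601) and Tlr1 passed it (log2 2.92, adjusted p = 0.0452). The call of Ly86 was lost under 9 of 22 alternatives, among them limma voom with the animal as a random block (log2 1.02, adjusted p = 0.0641).

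Levels can be compared between genes on the TPM scale, which corrects for length. Ly86 was the most abundant member in each group, with a mean TPM of 18.9 ± 2.46 (SD, n = 3) in sham contralateral, 17.8 ± 3.16 (n = 2) in sham ipsilateral, 45.3 ± 7.73 (n = 4) in CCI contralateral and 89.2 ± 16.0 (n = 4) in CCI ipsilateral hemispheres. Its range was separate from the next gene each time. Myd88 ranked 2 in sham hemispheres, at 4.95 ± 0.46 TPM contralateral and 5.54 ± 0.10 TPM ipsilateral, and was separate from Cd14 at 2.64 ± 0.74 and 2.56 ± 1.55 TPM. Cd180 ranked 5 in sham mice, at 1.29 ± 0.72 TPM contralateral and 1.50 ± 0.16 TPM ipsilateral, ranked 3 in CCI contralateral at 3.97 ± 0.65 TPM, and ranked 2 in CCI ipsilateral hemispheres at 14.0 ± 3.99 TPM. In that last group its range overlapped that of Myd88 at 10.7 ± 1.26 TPM. Below them came Cd14 at 8.33 ± 2.65, Tlr2 at 6.78 ± 1.23, Tlr13 at 5.31 ± 1.16, Ly96 at 4.08 ± 1.01, Tlr1 at 3.43 ± 0.71, Tlr4 at 2.47 ± 0.41 and Tlr6 at 1.77 ± 0.52 TPM. Every neighbour in this order after Ly86 overlapped the next, and the same held in CCI contralateral hemispheres. In sham ipsilateral hemispheres Ly96, Cd180 and Tlr13 were also separate from the next gene. In sham contralateral hemispheres neighbours from Cd14 downward overlapped, with Tlr2 at 1.02, Tlr4 at 0.92, Tlr13 at 0.83, Tlr6 at 0.46 and Tlr1 at 0.44 TPM.

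Whether partners changed by the same factor was asked of 7 ratios on the log2 TPM scale, between the 4 injured and 4 opposite hemispheres of CCI mice. An exact two-sided permutation test of 4 against 4 has 70 splits and cannot go below 0.0286. It does not use the pairing of hemispheres by animal, and a paired sign-flip test over 4 animals cannot go below 0.125. The ratio of Ly86 to Cd180 was 2.82, 2.70, 2.32 and 2.94 in the injured hemispheres of animals 1, 2, 3 and 5 and 3.67, 3.40, 3.49 and 3.47 in their opposite hemispheres. The ratio differed by -0.81 between the means and was lower on the injured side in 4 of 4 animals (exact permutation p = 0.0286, adjusted over 7 ratios 0.133). The hemispheres did not overlap, but the difference did not pass the adjustment.

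Cd180 stood higher relative to Tlr4, the receptor it is known to restrain in mouse cells, by 0.72 on the log2 scale in the injured hemispheres, with 4 of 4 animals in that direction (exact permutation p = 0.0571, adjusted 0.133). Tlr6 relative to Tlr2 was higher by 1.49 in 4 of 4 animals (exact permutation p = 0.0571, adjusted 0.133), and Tlr6 relative to Tlr1 by 1.47 in 3 of 4 (exact permutation p = 0.229, adjusted 0.32), both under the limit of divided reads. Both values depended on the scale: with a pseudocount of 0.1 TPM they were 0.97 and 1.00, and on log2 CPM 0.25 and 0.46 (adjusted p = 0.72 for each, exact permutation test). With each library left out Tlr6 to Tlr1 ranged from 0.84 to 2.35 and Tlr6 to Tlr2 from 1.19 to 1.98. The mean of Tlr6 to Tlr2 was -1.97 in injured and -3.47 in CCI contralateral hemispheres. In sham mice it was -2.37 ipsilateral and -1.12 contralateral. The mean of Tlr6 to Tlr1 was -0.99 in injured and -2.46 in CCI contralateral hemispheres. It was higher than either in sham mice, at -0.14 ipsilateral and 0.15 contralateral. Ratios in sham mice were not tested. Tlr1 to Tlr2 differed by 0.03 (exact permutation p = 0.943) and Cd14 to Tlr4 by 0.13 (exact permutation p = 0.657), with 2 animals each way. Ly96 to Tlr4 differed by -0.47 (exact permutation p = 0.2, adjusted 0.32), with 2 of 4 animals in that direction. None of the 7 passed an adjusted p of 0.05, which does not show that partners changed alike.

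**Figure D3:**
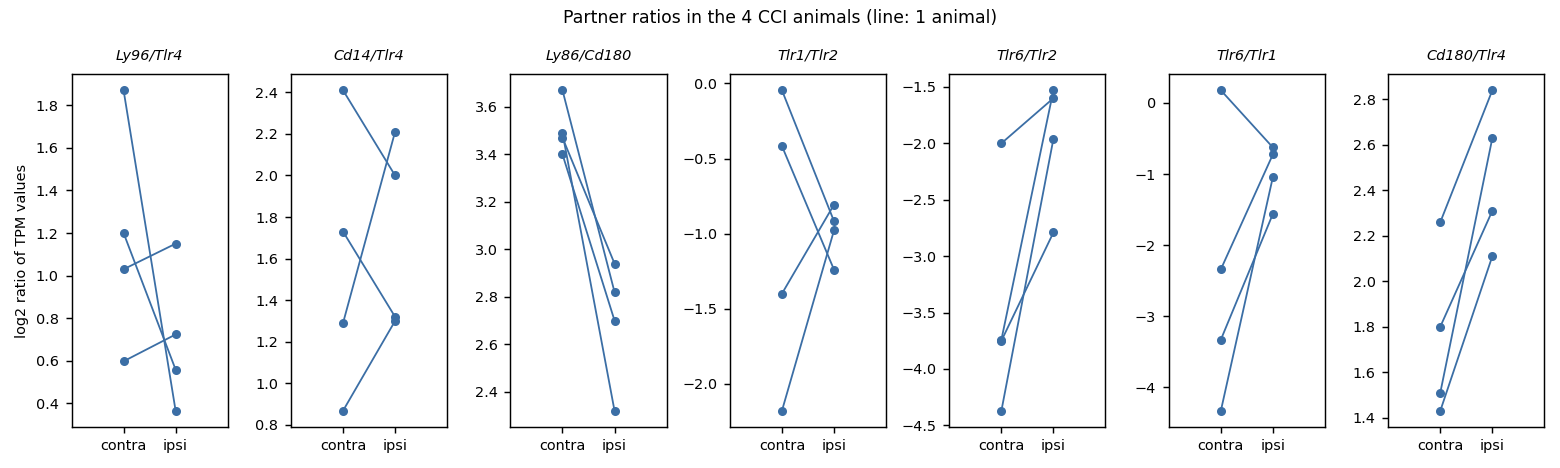
Log2 ratio of TPM values for 7 pairs of partners in the contralateral and ipsilateral hemispheres of the 4 CCI animals, each line joining the hemispheres of 1 animal; each panel has its own scale. The line falls in 4 of 4 animals for Ly86 to Cd180 and climbs in 4 of 4 for Tlr6 to Tlr2 and Cd180 to Tlr4.

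In the ipsilateral contrast with sham, microglial markers were higher, as the members were, while 4 of 5 tested neuronal markers were called lower. Of all tested genes 12.5% were called higher and 10.0% lower. The 12 microglial genes were all called higher in the ipsilateral contrast (median log2 1.01), and their mean log2 CPM was 4.46 in sham ipsilateral, 4.93 in CCI contralateral and 5.53 in CCI ipsilateral hemispheres. The summed level of 10 monocyte and macrophage genes was 22.6 to 41.3 CPM in injured and 3.44 to 3.47 CPM in sham ipsilateral hemispheres, with 4 of 5 tested genes higher, 3 of the 5 having passed the filter only through the injured hemispheres. For 8 neutrophil genes the sums were 17.0 to 28.0 and 5.85 to 8.30 CPM. Most of that sum was Csf3r, the only tested gene of the list (mean 20.0 against 6.11 CPM), while Ngp had 0.319 against 0.808 CPM and Mpo, Elane, Camp and Retnlg had means of at most 0.19 CPM in either group. The sums of 8 B cell genes, of a type known to carry CD180, were 3.89 to 5.47 and 1.21 CPM. Sums of 8 T and NK cell genes were 1.73 to 2.87 and 1.21 CPM, those of 6 astrocyte genes 6060 to 7700 and 4730 to 5060 CPM, and those of 6 neuronal genes 4300 to 4860 and 5800 to 6280 CPM. Endothelial sums were 204 to 247 and 181 to 204 CPM, and oligodendrocyte sums 6060 to 7070 and 5580 to 5800 CPM. Mrc1, Ms4a1 and Cd3e are listed at 0 in every library. The part of these cell types in the members' differences was not tested.

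Set against the mean of the 12 microglial genes, 9 of the 10 members had a higher mean in the injured than in the opposite hemispheres of CCI mice. The log2 difference beyond the list was 1.40 for Tlr13, 1.26 for Tlr6, 1.10 for Cd180, 1.02 for Tlr2, 0.81 for Tlr1, 0.47 for Cd14, 0.40 for Tlr4, 0.32 for Ly86 and 0.20 for Myd88, and -0.18 for Ly96. Relative to the list, Tlr6 had means of -4.41 in injured and -5.67 in CCI contralateral hemispheres, and in sham mice -5.1 ipsilateral and -4.46 contralateral. Myd88 had -2.3 in injured, -2.06 in sham ipsilateral and -2.31 in sham contralateral hemispheres. For Tlr13, Cd180, Tlr2 and Ly86 the hemispheres did not overlap and all 4 animals moved the same way, with the smallest p the exact permutation test can give (0.0286) and an adjusted p of 0.0714 over 10 members. No member passed 0.05 after adjustment on this scale, but with log2(TPM + 0.1) in place of log2 CPM 6 members did, Tlr2, Tlr1, Tlr6, Cd180, Ly86 and Tlr13 (adjusted p = 0.0476 for each). These permutation tests do not use the pairing of hemispheres by animal. On log2 CPM the paired sign-flip test over 4 animals gave 0.125 for each of the 6, the lowest value it can give. Contralaterally, the CCI mean relative to the same list exceeded the sham mean by 1.25 for Cd180 and 0.83 for Ly86, with ranges apart. The other 8 members had ranges that overlapped, with differences of 0.59 for Tlr1, 0.46 for Tlr2, 0.08 for Tlr13, -0.00464 for Cd14, -0.03 for Tlr4, -0.19 for Myd88, -0.36 for Ly96 and -1.21 for Tlr6.

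**Figure D4:**
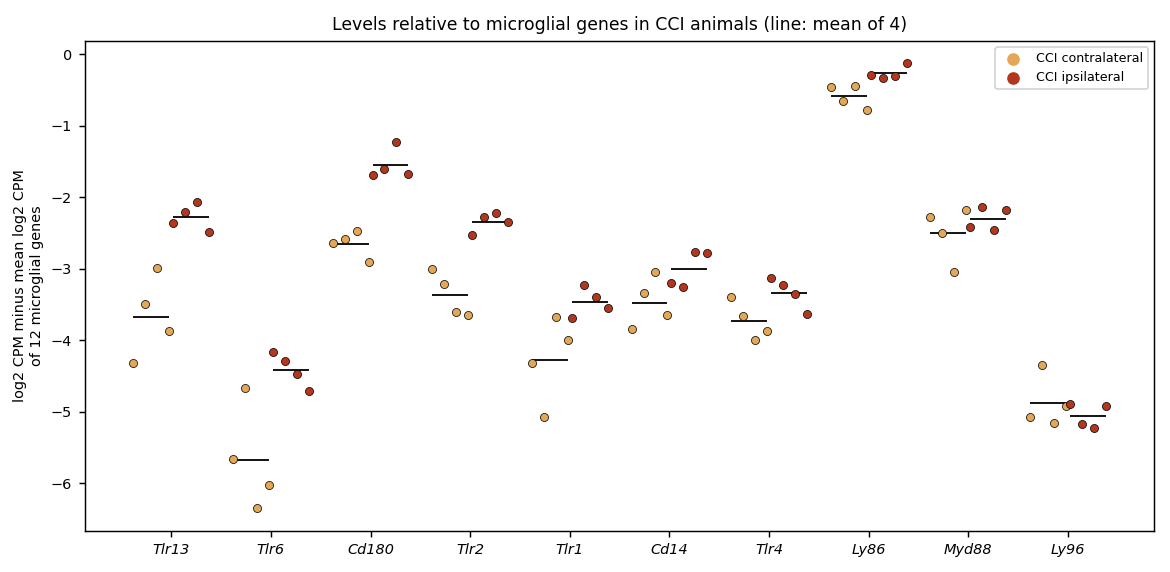
Log2 CPM of each gene minus the mean log2 CPM of 12 microglial genes, for the contralateral and ipsilateral hemispheres of the 4 CCI animals, with a line at each mean. Genes are ordered by the difference between hemispheres, from Tlr13 (1.40) to Ly96 (-0.18).

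The other genes of the pathway, taken from lists chosen with earlier results of these data known, did not all move with the receptors. Of all tested genes 12.5% were called higher in the ipsilateral contrast, a share to set beside the count of each list below. Given how the lists were chosen, that share is no test of them. Of 7 other Toll-like receptors 3 had enough counts, and Tlr7, an endosomal sensor of single-stranded RNA, was 3.88-fold higher in injured than in sham ipsilateral hemispheres (adjusted p = 1.01e-05). Tlr3, the sensor of double-stranded RNA, was 1.28-fold higher (adjusted p = 0.0415), and Tlr9 differed by 0.92 on the log2 scale without a call (adjusted p = 0.106). Tlr8 was too low to test, with 28 counts in injured hemispheres and 0 in sham ipsilateral ones. Of 5 chaperones, Unc93b1, which carries endosomal receptors to their compartment, was higher (2.89-fold, adjusted p = 7.29e-09) and 4 were not called.

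Of the 4 other TIR adaptors 2 were higher, Ticam2 (4.71-fold, adjusted p = 0.0203), which passed the filter only through the injured hemispheres, and Tirap, which bridges TLR2 and TLR4 to MyD88 (1.68-fold, adjusted p = 0.0228). Of 14 tested kinases, ligases and binding proteins 5 were higher and none lower (median log2 0.14), where 12.5% of all tested genes were higher. The 4 with the smallest adjusted p were Lyn (3.65-fold), Syk (2.47-fold), Pik3ap1 (4.37-fold) and Btk (3.76-fold), kinases and an adaptor of immune receptors more widely, while Traf6, which MyD88 complexes recruit, differed by 0.03 on the log2 scale (adjusted p = 0.871). In the NF-kappa B core 5 of 11 were higher (median log2 0.08), beside the same 12.5% of all tested genes. Among them were Rela (1.52-fold, adjusted p = 0.000425), Nfkb2 (2.62-fold, adjusted p = 0.000435), the inhibitor Nfkbia (1.47-fold, adjusted p = 0.00684) and Nfkbie (2.29-fold, adjusted p = 0.0204).

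Negative regulators were higher in 3 of 10 tested (median log2 0.21), beside 12.5% of all tested genes. The 3 were the inhibitory receptor Lilrb4a, the lipid phosphatase gene Inpp5d (2.18-fold, adjusted p = 2.1e-05) and Sigirr (3.41-fold, adjusted p = 0.0108). The value of Sigirr rests on 7 counts in sham ipsilateral libraries (0.571 CPM), against 1.50 CPM in sham contralateral, 1.41 in CCI contralateral and 1.96 in CCI ipsilateral ones, and between the hemispheres of CCI mice it was not called (log2 0.48, adjusted p = 0.332). Lilrb4a had 308 counts in the 4 injured and 2 in the sham ipsilateral libraries (adjusted p = 5.33e-10). Accessory receptors were higher in 9 of 9 tested (median log2 2.71), where 12.5% of tested genes were and Msr1 passed the filter only through the CCI ipsilateral libraries, as did Lilrb4a above. Without the filter 9 of all 10 were called. They included the lectin gene Lgals3 at 941 counts against 5 (adjusted p = 1.39e-14), the integrin chain Itgb2 6.25-fold higher (adjusted p = 1.66e-09), the beta-glucan receptor Clec7a at 301 counts against 3 (adjusted p = 2.58e-07) and the scavenger receptor Msr1 at 306 against 2 (adjusted p = 5.28e-05).

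Among proposed endogenous ligands 5 of 11 were higher (median log2 0.69), beside 12.5% of all tested genes. The 4 named by adjusted p are matrix components: Tnc (4.28-fold, adjusted p = 6.44e-10), Bgn (2.62-fold, adjusted p = 3.44e-06), Vcan (1.61-fold, adjusted p = 5.02e-05) and Fn1 (2.46-fold, adjusted p = 0.000671). Hmgb1 differed by 0.05 on the log2 scale (adjusted p = 0.666). Of 12 tested NF-kappa B target genes 11 were higher (median log2 2.54, also with Ccl2, listed at 0 in sham ipsilateral libraries, set at its bound of 3 counts over the group). The count and median are not independent of the difference, since 8 of the 12 passed the filter only through the CCI ipsilateral libraries. Without the filter 11 of 21 were called (median log2 2.45), where 8.02% of 24490 genes were called higher. They included Ccl3 with 89 counts against 1 (adjusted p = 1.03e-05), Icam1 (4.20-fold, adjusted p = 1.11e-05), Bcl3 with 92 counts against 2 (adjusted p = 2.27e-05) and Cxcl10 (15.9-fold, adjusted p = 2.59e-05). Tnf, Il1b and Il6 were too low to test, at 7, 18 and 4 counts in the injured hemispheres. In the contralateral contrast with sham none of these lists had a gene called.

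**Figure D5:**
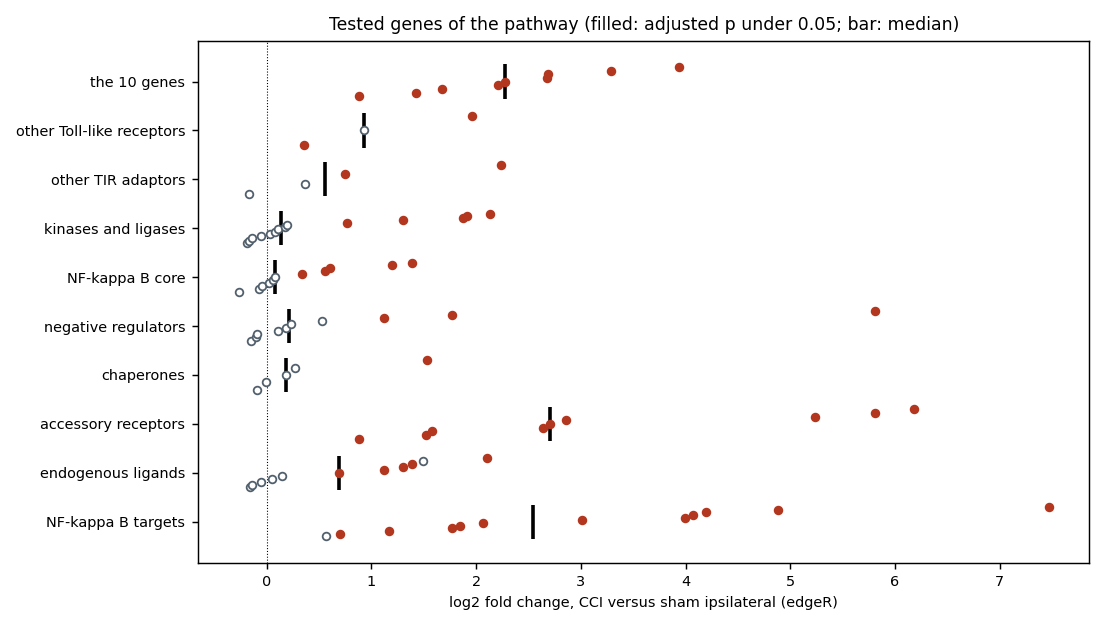
Log2 fold change between CCI and sham ipsilateral hemispheres for each tested gene of the 10 and of 9 pathway lists, filled where the adjusted p is under 0.05, with a bar at each list's median. Accessory receptors and NF-kappa B targets have medians of 2.71 and 2.54, beside 2.28 for the tested members, and kinases and the NF-kappa B core have medians of 0.14 and 0.08.

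As a description over the 13 libraries, which share their groups and are not independent points, the genes whose log2 CPM most resembled the mean z score of the tested members were Mpeg1 (Pearson r 0.994), C1qa (0.993), Ctss (0.991), Gusb (0.991) and Cd68 (0.99), of 14866 genes compared. The closest to Cd180 alone were Trem2 (0.985), C4b (0.984) and Serpina3n (0.984).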

How the data were processed

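RNA was measured in 13 libraries from 7 mice, prepared per the labels' protocols from perfused tissue with TRIzol and a stranded kit for polyadenylated RNA. The expected counts are the authors' RSEM estimates for each gene, unnormalized, as the submitters' processing notes and the values show. The authors also deposited TPM values, scaled for gene length and depth. The deposited DESeq2 results of the authors give log2 estimates, a signed fold change treated as a score, and raw and adjusted p-values. Besides RSEM and DESeq2, bcl2fastq and GRCm38 (mm10) are named in the submitters' processing notes. Versions, the aligner and the strand setting of counting were not given in the sources used here, so genes that overlap on opposite strands can share reads.

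Expected counts were rounded to whole numbers and tested with edgeR 4.0.16 (R 4.3.3) after TMM scaling and filterByExpr with a minimum count of 10, which keeps 14875 genes. The fit had a mean for each of the 4 groups over all libraries, without a block, with p-values adjusted by Benjamini-Hochberg over all tested genes. Standard errors were obtained from the F statistic and are approximate. No animal number occurs in both the CCI and the sham groups, which leaves those contrasts unpaired. Partner ratios used log2 of TPM + 0.01, and levels relative to microglial genes used log2 CPM with a prior count of 2, both with exact two-sided permutation tests. Alternatives were RLE scaling, no filter, DESeq2 1.42.0, limma 3.58.1 (voom, or log2 of TPM plus a pseudocount), only the groups compared, the animal as a replicate block, and each library left out. The edgeR steps were tested on simulated data with 200 changed genes.

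The animal number in the labels pairs the hemispheres of a mouse. Paired hemispheres had deviations from their group means that correlated at 0.00348 to 0.0882 (6 pairs), against -0.0966 to 0.0966 for unpaired ones. Replicates of a group differed by more than sampling noise in every pair, so no library was counted as a duplicate. Intervals on counts cover counting error only. Member positions are those of GENCODE M21, promoters those of RefSeq.

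The members and the gene lists were chosen with earlier results of these data known. All 10 members are named, and of each pathway list the counts, up to 4 tested genes with the smallest adjusted p in the ipsilateral contrast and any that fell. Other genes (Tlr8, Tlr9, Traf6, Hmgb1, Ccl2, Tnf, Il1b and Il6) were chosen after their values were seen. A result that the rule would name is not reported here.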

Additional observations from a re-analysis of the deposited data

Results flagged for a closer look

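In 4 members the difference between hemispheres was itself larger in CCI than in sham mice by the interaction test in edgeR. The log2 difference of differences was 1.73 for Tlr2, 3.29 for Tlr6, 1.04 for Ly86 and 2.09 for Tlr13. In CCI mice alone the hemisphere difference was 1.70 for Tlr2, 2.32 for Tlr6, 0.93 for Ly86 and 1.99 for Tlr13, and in sham mice it was -0.03, -0.97, -0.11 and -0.10. The sham term rests on 2 ipsilateral libraries. For Tlr6 it also rests on reads divided with Tlr1, and Tlr6 passed the filter only through the CCI ipsilateral libraries. The summed counts of Tlr1 and Tlr6 gave 2.73 ± 0.56 (edgeR adjusted p = 0.00231), with hemisphere differences of 1.67 in CCI and -1.06 in sham mice. No CCI library stood apart from its group among 20 groups of 4 tested, a test that by chance marks about 1 in 20. The sham groups hold fewer libraries and were not tested in this way.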

How the results depend on the processing

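Of 198 member values recomputed for the ipsilateral contrast with sham, 195 kept direction and call, and the other 3 lost the call when a sham ipsilateral library was left out, so members called ranged from 7 to 9. For the contralateral contrast 186 of 198 were unchanged. Members called there fell from 2 to 0 with limma voom, to 0 with the replicate block as a random effect (limma voom) and to 1 with limma on log2(TPM + 1) without a filter, and ranged from 0 to 2 with each library left out. The log2 value of Tlr4 in that contrast ranged from -0.0578 to 0.523 with each library left out. All 207 values between the hemispheres of CCI mice kept direction and call, the replicate block (animal) included. The interaction called 1 to 6 members with each library left out, and the replicate block ended the call of Tlr13 (1.69, adjusted p = 0.0601) and added that of Tlr1 (2.92, adjusted p = 0.0452).

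None of the sham hemisphere values was called under any alternative, and 17 of 199 changed sign. With limma voom Tlr4 was 0.0194, with log2(TPM + 0.1) Tlr13 was 0.0043, with the replicate block (animal) Tlr4, Cd14 and Tlr13 were 0.13, 0.154 and 0.354, and with the block as a random effect Tlr4 and Tlr13 were 0.0508 and 0.0471. With each library left out the ranges were -0.405 to 0.291 for Tlr2, -0.671 to 0.349 for Tlr4, -0.839 to 0.436 for Cd14, -0.165 to 0.592 for Cd180, -0.281 to 0.0541 for Ly86 and -0.296 to 0.348 for Tlr13.

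The ratio of Tlr1 to Tlr2 changed sign to -0.0312 with a pseudocount of 0.1 TPM and to -0.207 on CPM. Relative to microglial genes, log2(TPM + 0.1) in place of log2 CPM brought Tlr2 (1.08), Tlr1 (1.05), Tlr6 (2.04), Cd180 (1.13), Ly86 (0.339) and Tlr13 (1.46) to an adjusted p of 0.0476 in the exact permutation test, which does not use the pairing. The causes of these changes were not tested. The paired sign-flip test over 4 animals cannot go below 0.125, and with a library left out the ratios were recomputed as values without a test. Depth limits Ly96, Tlr1 and Tlr6 most, which had 7, 3 and 5 counts in the sham ipsilateral libraries.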

Other observations

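The log2 estimates in the authors' deposited table matched those of the edgeR fit closely between the hemispheres of CCI mice, with a median absolute difference of 0.01 over the 10 members and a highest of 0.06 (Tlr6). In the comparisons that involve sham libraries they did not. The median absolute difference was 0.37 against sham ipsilateral, 0.24 against sham contralateral and 0.24 between sham hemispheres, with highest values of 0.88 (Cd14), 0.95 (Cd14) and 1.20 (Tlr1). For Cd14 in the contralateral contrast the sign differed, at -0.50 in the authors' deposited table and 0.45 in the edgeR fit. For Tlr1 between sham hemispheres the authors' deposited table gives 0.06 and the edgeR fit -1.14. For Cd180 in the contralateral contrast the authors' deposited table gives 2.04 with an adjusted p of 1.40e-05, and for Ly86 1.44 with an adjusted p of 1.98e-09. What differs in the sham arm of that table was not tested.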
